A study of Arabidopsis thaliana with 4 samples.

Results

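The tiles described here are the features of a 2-colour array whose codes begin with PD01 to PD04 or with TD01, followed by a row letter and a well number. They were chosen by code alone, and every tile so named had a value on all 4 arrays. There were 412 such tiles among 21732 measured features, 316 in the PD plates and 96 in TD01. Plates PD01 and PD02 held 96 tiles each and PD03 held 95, lacking well 5 of row C. PD04 held 29 tiles, filling rows A and B and the first 5 wells of row C. The sources used here do not say what the letters PD and TD stand for or which genes or positions the tiles cover, and none of the 412 codes matched the gene table of assembly TAIR10.1.

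The arrays compared DNA precipitated with an antibody against histone H3 from Upstate with the input DNA of the same preparation. The material was untreated 10 day old Arabidopsis thaliana seedlings of ecotype Col-0 grown in liquid medium under long days. All 4 arrays form 1 group of 2 replicates, each hybridised in both dye orientations. The arrays of each dye swap carried identical values at every measured feature, so n = 2. No label ties replicates I and II to separate cultures (they are called 1 and 2 here). The p-values set a tile's distance from the median against the spread between these 2 replicates, pooled over all features. That spread may be technical. The number of arrays limits the precision.

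Histone H3 is part of the protein core around which DNA is wound in the nucleosome. An antibody against H3 itself, rather than against a modified form, is used to follow nucleosome occupancy and as a reference for maps of histone marks. In plants as in other eukaryotes, nucleosomes are generally sparse at active promoters and dense in heterochromatin. The score is read as a ratio between precipitate and input on a logarithmic scale. Its base and its numerator are not settled by the labels, so "above" and "below" refer to the array median of the score and say nothing of more or less H3. All values are in score units after subtraction of each replicate's median over all features.

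The PD tiles lay slightly below the array median in both replicates and the TD01 tiles lay close to it. The median of the 316 PD tiles was -0.062 in replicate 1 and -0.078 in replicate 2, a mean of -0.070 ± 0.011 (SD, n = 2). The median of the 96 TD01 tiles was -0.0098 in replicate 1 and -0.015 in replicate 2, a mean of -0.012 ± 0.0039 (SD, n = 2). The medians of the TB plates (-0.032 and -0.047) and of plates TC00 to TC13 (-0.043 and -0.093) were below zero too. So was that of the TA plates outside 2 high runs picked on these values, TA22 to TA28 and TA35 to TA51 (-0.012 and -0.050). Among the PD tiles 164 (51.9%) were negative in both replicates, 89 (28.2%) were positive in both, and 63 changed sign between replicates. In TD01 the counts were 38 (39.6%) negative, 30 (31.2%) positive and 28 of changing sign. Over all features they were 8807 (40.5%) negative, 8807 (40.5%) positive and 4118 of changing sign. The share negative in both was 45.7% in TB, 50.4% in TC00 to TC13 and 43.7% in TA outside the high runs. Single PD tiles ranged from -0.56 to 0.58 in replicate 1 and from -0.78 to 0.73 in replicate 2. TD01 tiles ranged from -0.52 to 0.40 and from -0.71 to 0.62.

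**Figure D1:**
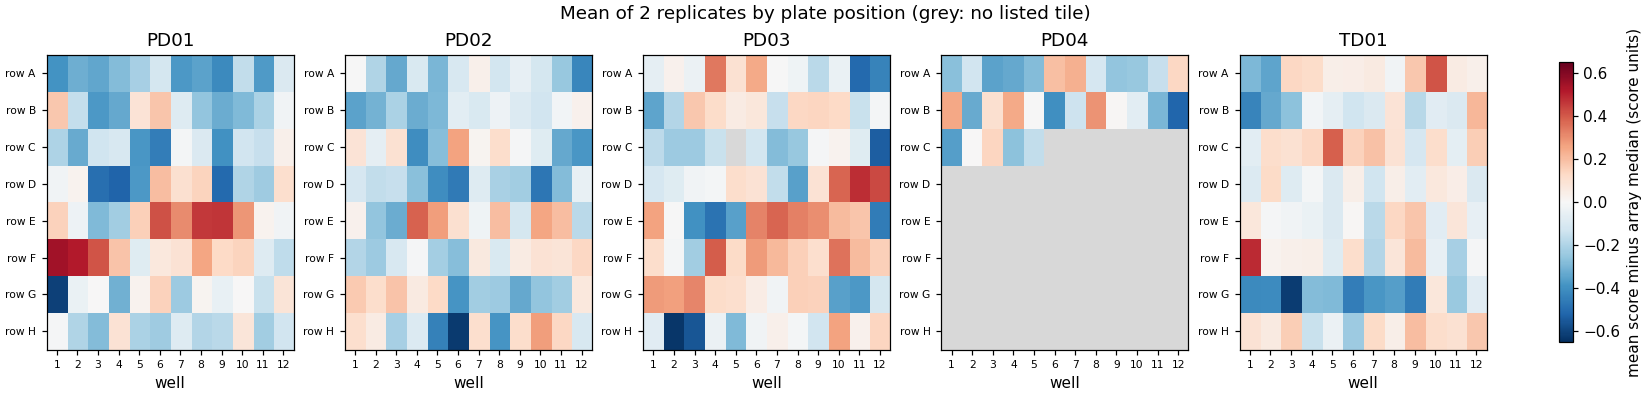
Mean score of the 2 replicates, minus the array median, for each tile of PD01 to PD04 and TD01, drawn at its row (A to H, vertical) and well (1 to 12, horizontal). Red is above and blue below the array median in score units, and grey marks positions with no listed tile. Row A of PD01 and wells 1 to 9 of row G of TD01 are blue. Rows E and F of PD01 hold its deepest red tiles, beside some blue ones. Its rows B, C, D, G and H hold paler red tiles.

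Each tile's mean was tested against the array median with limma (moderated test across all 21732 features, Benjamini-Hochberg adjustment over all of them, 5%). Over the whole array 17.0% of features passed above the median and 19.4% below. Of the PD tiles 29 (9.18%) passed above and 72 (22.8%) below, and 215 did not pass. In TD01 3 tiles (3.12%) passed above and 14 (14.6%) below, and 79 did not pass. The share above was thus under the array-wide share in both plate sets, while the share below was near it for PD and under it for TD01. The share above was also under the array-wide share in TB (7.20%), TC00 to TC13 (6.01%) and TA outside the high runs (12.6%). A tile had to lie at least 0.26 units from the median to pass, because all features shared a standard error of 0.11 units. A tile's own spread between replicates therefore played no part in its call.

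The replicates agreed in sign for all 32 tiles that passed above and for 85 of the 86 that passed below. Over all features the counts were 3690 of 3697 above and 4178 of 4211 below, and the distance needed to pass largely fixes this agreement. The exception was PD03D08, chosen here after its values were seen, which was at 0.047 in replicate 1 and -0.75 in replicate 2. The replicates of this tile were 0.80 units apart, the widest gap among the 412. Means of 0.5 units or more from the median were found in 2 PD tiles above (0.633%) and 9 below (2.85%), against 6.65% and 3.23% of all features. In TD01 these counts were 0 and 1. In the TB plates the shares were 0.865% above and 3.73% below, and in TC00 to TC13 0.234% and 5.70%. The TA plates outside their high runs had 2.75% and 3.39%. Tiles within 0.1 units of the median made up 50.0% of TD01, 27.5% of PD and 27.9% of all features.

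The split between the sides depended on where the array was centred and on the variance model. These shifts ran the same way over the whole array. Without centring 104 of the 412 tiles (25.2%) passed above zero and 11 (2.67%) below, against 34.6% and 3.70% of all features. With each replicate centred on its mode 16 (3.88%) passed above and 100 (24.3%) below, against 12.1% and 22.2% of all features. With limma's trend and robust options together 10 (2.43%) passed above and 0 below, against 9.95% and 0.175% of all features, and 100 tiles were below at an unadjusted p under 0.05 in that limma fit. The trend option alone gave 37 (8.98%) above and 72 (17.5%) below, against 19.1% and 17.0% of all features. Scaling both replicates to the same spread gave 37 (8.98%) and 108 (26.2%), against 20.1% and 22.6%, and quantile normalization 47 (11.4%) and 124 (30.1%), against 22.9% and 25.6%.

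**Figure D2:**
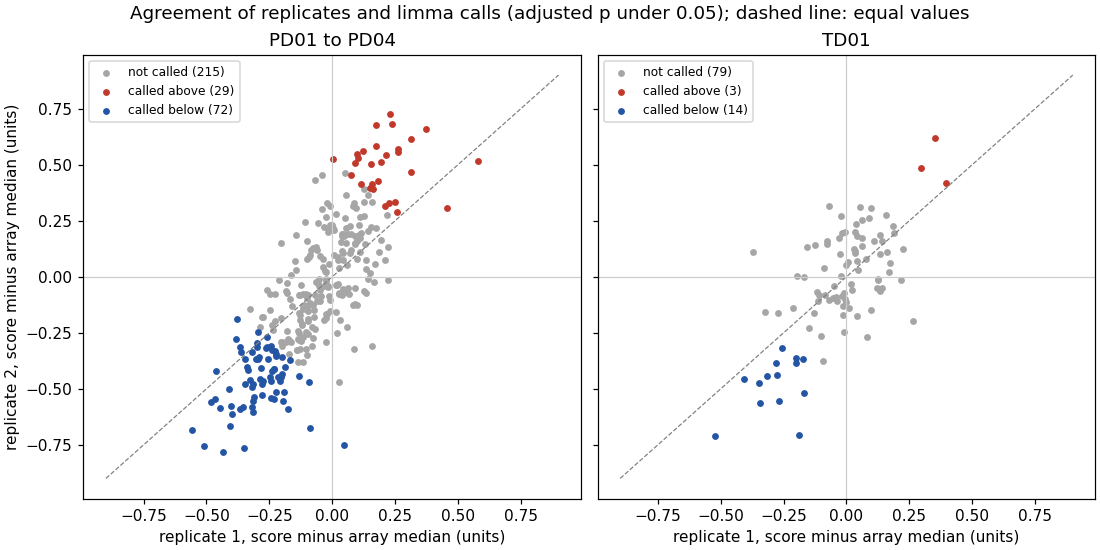
Score of each tile in replicate 1 (horizontal) against replicate 2 (vertical), both minus the array median in score units, for the 4 PD plates (left) and TD01 (right). Red and blue points passed limma's test above (29 and 3 tiles) and below (72 and 14 tiles), grey points did not, and the dashed line marks equal values. Most called tiles lie farther from zero in replicate 2 than in replicate 1.

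The 4 PD plates were not alike. PD01 had a median of -0.073 in replicate 1 and -0.14 in replicate 2. PD02 was at -0.089 and -0.11, and PD04 at -0.13 and -0.10. These 3 plates lay below the array median in both replicates. PD03 was at -0.011 in replicate 1 and 0.075 in replicate 2, so its side differed between replicates. Among the 231 plates of the array, counted from the lowest median, PD01 ranked 48 and 45 in replicates 1 and 2, PD02 30 and 59, and PD03 123 and 164. PD04, with 29 tiles, ranked 7 and 64, and TD01 ranked 124 and 120.

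The counts of called tiles differed between the PD plates. In PD01 8 of 96 tiles passed above and 24 below. In PD02 4 passed above and 23 below, in PD03 16 above and 15 below, and in PD04 1 above and 10 below. The shares of PD03, 16.8% above and 15.8% below, were near those of all features (17.0% and 19.4%). PD03 held 16 of the 29 PD tiles that passed above, and without it 13 of 221 PD tiles (5.88%) passed above and 57 (25.8%) below.

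The high tiles of PD03 were high mainly in replicate 2. In the 16 that passed above, replicate 1 ran from 0.0049 to 0.31 with a median of 0.17. Replicate 2 ran from 0.32 to 0.73 with a median of 0.52, and it was the farther from zero in all 16. When each replicate also had to lie at least 0.2 units above the median, 5 of these 16 tiles remained, and 14 of the 29 PD tiles (4.43%), against 13.9% of all features. Of the 72 PD tiles below, 60 remained (19.0%), against 14.2% of all features. In TB these shares were 5.01% above and 16.2% below, and in TC00 to TC13 4.29% and 20.6%. In TA outside the high runs they were 9.09% and 15.1%. The spread of PD03 was 0.17 (SD over tiles) in replicate 1 and 0.35 in replicate 2. This ratio of 2.10 ranked 7 from the highest among 231 plates, whose median ratio was 1.67. PD01 and PD02, with ratios of 1.67 and 1.60, were near that median. The part of the wider spread of replicate 2 in the calls of PD03 was not tested.

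In PD01 the tiles that passed above and most of those below lay in different rows. Over all features 17.0% passed above and 19.4% below. Rows A to D held 48 tiles, of which 20 (41.7%) passed below and 0 above. The medians of these rows were -0.20 in replicate 1 and -0.24 in replicate 2. Rows E and F, with medians of 0.040 and 0.26, held all 8 tiles of the plate that passed above. These were 33.3% of their tiles, and 1 tile there (4.17%) passed below. Rows G and H, at -0.082 and -0.10, held 3 tiles below (12.5%) and 0 above. The rows were grouped after their values had been seen, so no test was applied.

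Row A of PD01 was the lowest full row of the PD plates in both replicates. Its median was -0.21 in replicate 1 and -0.42 in replicate 2. Of its 12 tiles 8 (66.7%) passed below, against 19.4% of all features, and 11 were negative in both replicates. The remaining tile had a mean below zero as well, as the tile means of the row ran from -0.41 to -0.094. Without row A, 16 of 84 tiles of PD01 (19.0%) passed below and the plate's medians were -0.059 and -0.074.

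The highest PD tiles were neighbours at the start of row F of PD01. PD01F01 was at 0.58 in replicate 1 and 0.52 in replicate 2, a mean of 0.55 ± 0.046 (SD, n = 2; limma adjusted p = 9.91e-06). PD01F02 was at 0.37 and 0.66, a mean of 0.52 ± 0.20 (SD, n = 2; limma adjusted p = 3.62e-05). The next well, well 3, was at 0.26 and 0.56 and passed too, while the well before them, well 12 of row E, was at 0.028 and -0.076. The step from that well to the high stretch therefore fell at a row end of the plate. Over the whole array 1189 features had a mean at least as high as PD01F01.

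A second high stretch of PD01 covered wells 6 to 10 of row E. It was the longest run of successive tiles above in the PD plates, with 5 tiles. In replicate 1 they ran from 0.16 to 0.31 and in replicate 2 from 0.42 to 0.68. The median was 0.24 in replicate 1 and 0.57 in replicate 2. The 2 high stretches of PD01 were separated by wells 11 and 12 of row E, which did not pass.

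The lowest PD tiles lay in row H of different plates. PD03H02 was at -0.51 in replicate 1 and -0.76 in replicate 2, a mean of -0.63 ± 0.17 (SD, n = 2; limma adjusted p = 2.29e-07). Its next well was at -0.35 and -0.76 and passed, and the wells on either side of this pair did not. PD02H06 was at -0.56 and -0.69, a mean of -0.62 ± 0.091 (SD, n = 2; limma adjusted p = 3.95e-07). The well before it was at -0.46 and -0.42 and passed, while the well after it was at 0.038 and 0.18. Both low sites thus spanned 2 adjoining wells, and beside that of PD02 well 8, at -0.090 and -0.68, passed again. Over the array 170 features had a mean at least as low as PD03H02.

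Short low stretches were common in the PD plates. The 72 tiles below formed 43 runs of successive wells, 24 of them of 1 tile, and the longest, wells 1 to 4 of row A of PD01, had 4. The 29 tiles above formed 14 runs, 8 of them of 1 tile. A tile called on the same side lay next to 66.7% of the PD tiles below and to 72.4% of those above. In the TB plates these shares were 74.3% and 63.0%, in TC00 to TC13 72.8% and 54.5%, and in TC17 to TC30 39.4% and 96.2%. In all TA plates they were 69.7% and 82.5%. The TA plates include 2 runs of high plates picked on these values, TA22 to TA28 and TA35 to TA51. Outside these runs the shares were 70.8% and 69.1%. A set's share with a called neighbour also depends on how many of its tiles passed. In TC17 to TC30 2.95% of tiles passed below and 74.7% above, against 22.8% and 9.18% in PD.

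PD02 had at least 1 tile below in each of its 8 rows and few above. Row D had medians of -0.17 in replicate 1 and -0.26 in replicate 2. Of its 12 tiles 5 (41.7%) passed below, against 19.4% of all features, and 11 were negative in both replicates. The 4 tiles above, named after their values were seen, were well 6 of row C, wells 4 and 5 of row E and well 10 of row H. Their scores were 0.11 to 0.46 in replicate 1 and 0.29 to 0.41 in replicate 2.

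PD03 alternated between low and high stretches in rows D and E. Wells 10 of row D to 1 of row E formed a high run of 4 tiles, with medians of 0.20 in replicate 1 and 0.61 in replicate 2. A low run of 3 tiles followed in wells 3 to 5 of row E, at -0.33 and -0.51. A further high run of 4 tiles covered wells 6 to 9 of row E, at 0.13 and 0.53. Row E as a whole had a median of -0.055 in replicate 1 and 0.44 in replicate 2. It held 5 tiles above (41.7%) and 4 below (33.3%), against 17.0% and 19.4% of all features. Within row E the replicates were closer to each other on the low run than on the high run.

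In PD04 the 29 tiles agreed well between replicates. Their scores correlated with Pearson's r = 0.91 between replicates, against 0.84 in PD01 and 0.76 in both PD02 and PD03. These coefficients are across tiles of the same arrays and describe these plates only. The 10 tiles below ran from -0.45 to -0.20 in replicate 1 and from -0.59 to -0.19 in replicate 2. The tile above, PD04B08, was at 0.25 and 0.33.

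In TD01, rows D to F, grouped after their values were seen, lay close to the array median. They held 36 tiles, of which 26 (72.2%) lay within 0.1 units of the median, against 27.9% of all features. In these rows 1 tile (2.78%) passed above and 0 below, against 17.0% and 19.4% of all features. In row G, wells 1 to 9 all passed below, the longest run of called tiles in the PD and TD01 plates. In replicate 1 these 9 tiles ran from -0.52 to -0.19 with a median of -0.28. In replicate 2 they ran from -0.71 to -0.32 with a median of -0.47. The run ended at well 10, which was at 0.034 in replicate 1 and 0.12 in replicate 2. All 9 means stayed negative without centring, the only setting tried that could have changed their sign. Of the 9 tiles 1 passed without centring, 8 with the trend option alone and 0 with trend and robust variance together (limma adjusted p from 0.079 to 0.10).

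Row G held 9 of the 14 TD01 tiles below. This row was singled out after its values were seen. Without it 5 of 84 tiles (5.95%) passed below and 3 (3.57%) above, against 19.4% and 17.0% of all features. The medians of the plate were then 0.0028 and 0.012. The other 5 low tiles were in rows A and B, at the start of each row. The correlation between replicates over TD01 tiles was 0.70, and 0.56 without row G.

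The lowest TD01 tile was TD01G03, at -0.52 in replicate 1 and -0.71 in replicate 2, a mean of -0.62 ± 0.13 (SD, n = 2; limma adjusted p = 5.02e-07). TD01G09, at the far end of the run, was at -0.34 and -0.56, a mean of -0.45 ± 0.16 (SD, n = 2; limma adjusted p = 0.000309). Within the run the replicates were farthest apart at TD01G06, at -0.19 and -0.71.

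High tiles of TD01 stood alone. TD01F01 was at 0.35 in replicate 1 and 0.62 in replicate 2, a mean of 0.49 ± 0.19 (SD, n = 2; limma adjusted p = 0.000104). The well before it was at -0.0049 in replicate 1 and -0.098 in replicate 2, and the well after it at -0.0027 and 0.053. TD01A10 was at 0.40 and 0.42, a mean of 0.41 ± 0.013 (SD, n = 2; limma adjusted p = 0.0013). The remaining high tile, TD01C05, was at 0.30 and 0.48. None of the 3 had a neighbour that passed above.

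**Figure D3:**
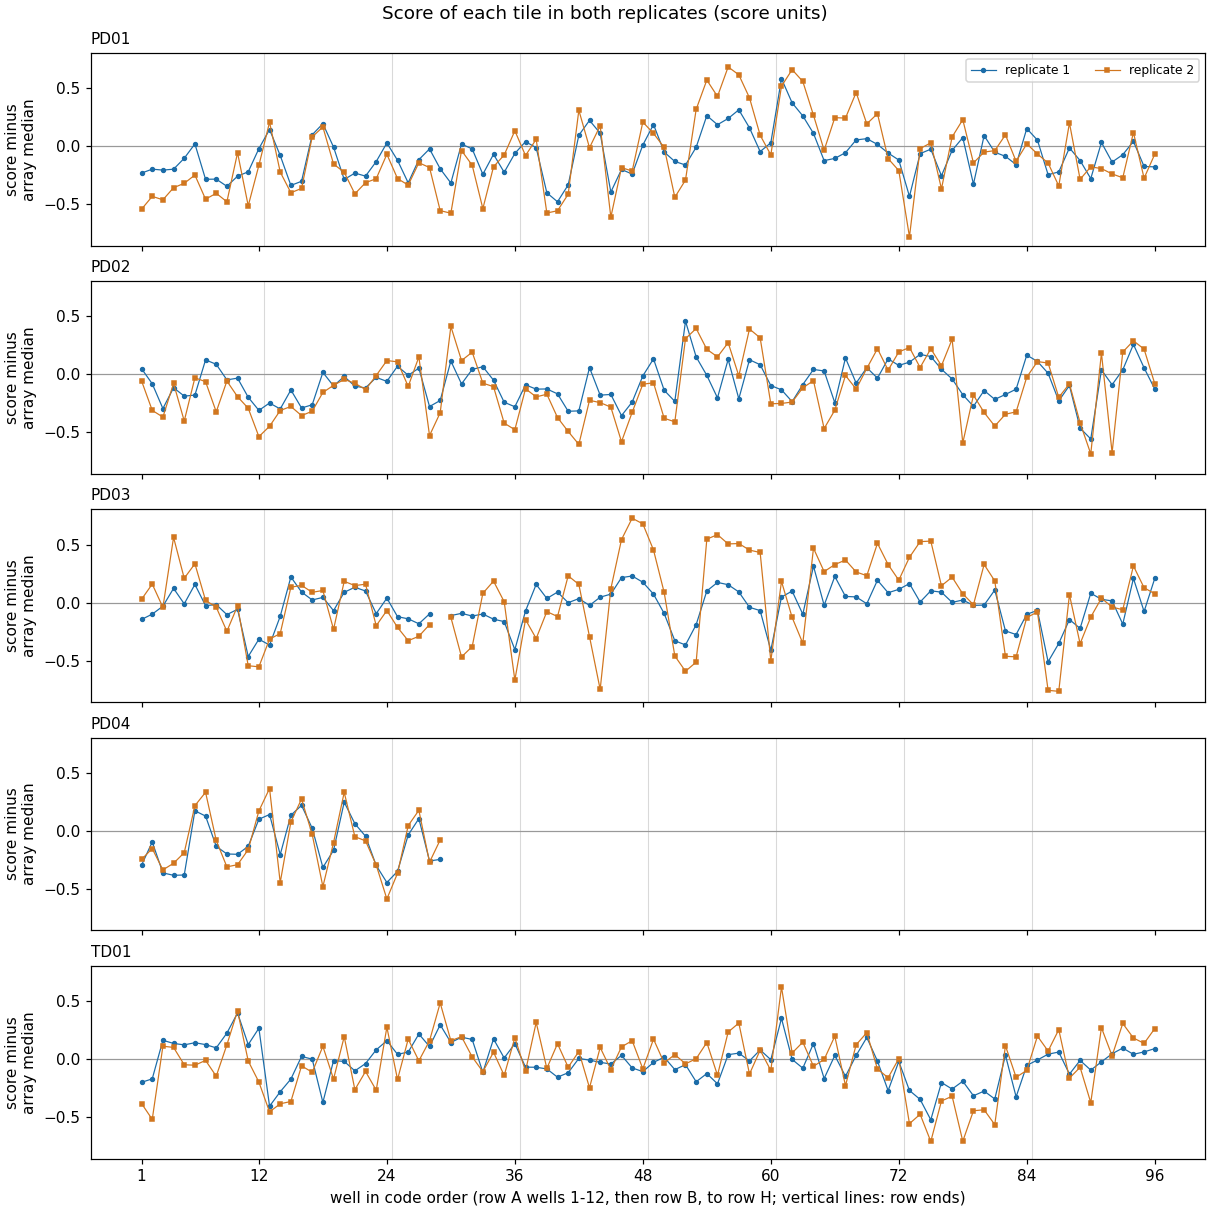
Score of each tile minus the array median (vertical, score units) in code order (horizontal, wells 1 to 96 of each plate) for replicate 1 (circles) and replicate 2 (squares), with vertical lines at row ends. The 9 low tiles of TD01 lie at positions 73 to 81 in both replicates, and the high stretches of PD03 rise farther in replicate 2 (up to 0.73) than in replicate 1 (up to 0.23).

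Tiles that follow each other in the code had similar scores in most of these plates. In the mean of the replicates, successive wells correlated with r = 0.54 in PD01, 0.40 in PD02, 0.53 in PD03 and 0.44 in TD01, over 93 to 95 pairs. In PD04 it was 0.28 over 28 pairs, and -0.35 at 2 wells apart over 27 pairs. The 197 full TA, TB and TC plates had a median of 0.55, and 90% of them lay between 0.36 and 0.74. At 2 wells apart r was 0.24 in PD01, 0.20 in PD02, 0.27 in PD03 and 0.45 in TD01, compared with a median of 0.28. Tiles in the same well of different plates correlated with r between -0.17 and 0.20 over the 10 pairs of plates. All of these coefficients are across tiles that share their arrays, and they are given as descriptions.

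The PD tiles were then compared with TD01 and with the other plate sets as differences between medians within each replicate. With 2 replicates an exact permutation test cannot give a two-sided p below 0.5, so none of these differences could pass a test over samples. PD was lower than TD01 by 0.053 units in replicate 1 and by 0.063 in replicate 2, a difference of -0.058 ± 0.0070 (SD, n = 2). Taken by plate, PD01, PD02 and PD04 were below TD01 in both replicates. PD03 differed from TD01 by -0.0011 in replicate 1 and 0.091 in replicate 2. The lower median of PD was therefore not shared by all 4 plates.

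Against the 9325 TA tiles the difference of PD was -0.086 in replicate 1 and -0.11 in replicate 2, a mean of -0.097 ± 0.016 (SD, n = 2). The TA plates include runs of high plates, TA22 to TA28 and TA35 to TA51, that were picked on these values. Without those runs the difference was -0.051 and -0.028, a mean of -0.039 ± 0.016 (SD, n = 2). Against the 9594 TB tiles it was -0.031 in both replicates. Against all 2401 TC tiles it was -0.17 and -0.24, a mean of -0.20 ± 0.052 (SD, n = 2).

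The TC set combines plates of unlike level. Its split at a gap in the codes was made with these values known, so that TC00 to TC13 is the part left once the high TC plates are taken out. Against the 1281 tiles of TC00 to TC13 the difference was -0.020 in replicate 1 and 0.015 in replicate 2, a mean of -0.0024 ± 0.024 (SD, n = 2), within the spread between replicates. Against the 1120 tiles of TC17 to TC30 it was -0.48 and -0.66. The spread of the tile means was 0.23 (SD over tiles) in PD and 0.20 in TD01. It was 0.24 in TB, 0.25 in TC00 to TC13 and 0.32 in TA.

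By the share of called tiles PD was nearest to TB, TC00 to TC13 and the TA plates outside the runs. The share above was 9.18% in PD, 7.20% in TB, 6.01% in TC00 to TC13 and 12.6% in TA outside the runs. The share below was 22.8% in PD, 21.3% in TB, 26.4% in TC00 to TC13 and 21.8% in TA outside the runs. TD01 had lower shares on both sides (3.12% and 14.6%) than any of these. TD01 is a lone plate, so no spread between TD plates can be given.

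**Figure D4:**
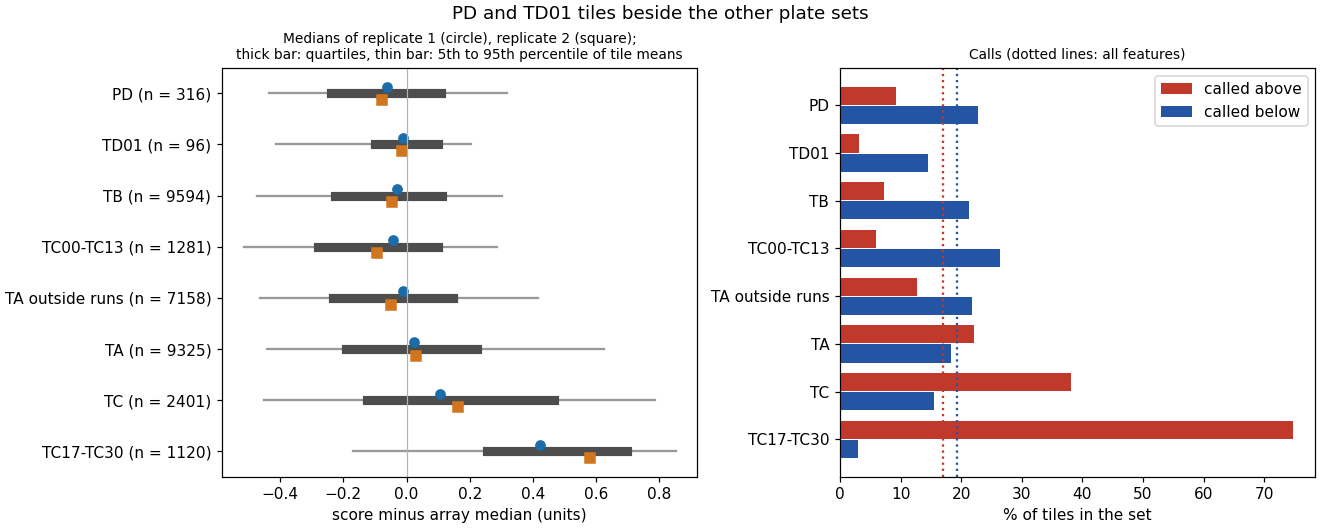
Left, medians of replicate 1 (circles) and replicate 2 (squares) for each plate set, minus the array median in score units, with thick bars between the quartiles and thin bars from the 5th to the 95th percentile of tile means. Right, percent of tiles in each set that passed limma's test above (red) and below (blue), with dotted lines at the shares over all features (17.0% and 19.4%). PD lies beside TB and TC00 to TC13, and TC17 to TC30 stands apart.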

How the data were processed

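Per the labels' protocols, precipitate and input DNA were amplified and given the dyes Cy3 and Cy5 by direct labelling. The deposited values are a ratio score per feature and array, made by the authors. The sources used here do not state their normalization, logarithm base, centring, numerator or genome build. The deposited medians were 0.23 in replicate 1 and 0.13 in replicate 2. Of 21800 listed features, 68 were empty, none of them a PD or TD tile.

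Arrays of a dye swap, which held identical values, were averaged, and each replicate was centred on its median over all features. R 4.3.3 and limma 3.58.1 (functions lmFit and eBayes) served to test all features together, and p-values were adjusted by the Benjamini-Hochberg method. The prior degrees of freedom were infinite, so the residual SD of 0.16 was common to all features. The test was also run on simulated data with the same normal spread for all features and both replicates. That setting cannot show how the test behaves where replicate 2 spreads wider, as it does here. Descriptions used pandas 2.3.3 and numpy 2.4.6 under Python 3.11.15, with scipy 1.17.1 for the mode and matplotlib 3.10.9 for plots. Depth does not apply to these arrays.

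Named tiles are, separately for PD and TD01, the 2 highest and 2 lowest that passed with the same sign in both replicates, and others are marked where named. The tiles, plate sets and tests were chosen with earlier results of these data known. Alternatives covered centring, scaling, quantile normalization, the variance model, thresholds, sparsely filled plates and each replicate left out.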

Additional observations from a re-analysis of the deposited data

How the results depend on the processing

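Counts of called tiles (32 above and 86 below, PD 29 and 72, TD01 3 and 14) moved by more than 1.5 times under several settings. Counts over all features (3697 above and 4211 below) did so without centring, with trend and robust variance together and with the minimum distance. With centring on the mode, at 1% and with 0.2 units required in each replicate, those over all features moved by less. Without centring the PD and TD01 tiles called were 104 and 11 (PD 81 and 10, TD01 23 and 1), with 7509 and 804 over all features. The medians of PD and TD01 were then 0.11 and 0.17. With centring on the mode the medians were -0.13 and -0.072, and 16 tiles passed above (PD 13), with 2626 over all features. With trend and robust variance together, counts were 10 above and 0 below (PD 8 and 0, TD01 0 below), with 2163 and 38 over all features. At 1% they were 17 and 53 (PD 14 and 44, TD01 9 below), with 2774 and 2891 over all features, and with a minimum distance of 0.5 units 2 and 10 (PD 2 and 9, TD01 0 and 1), with 1445 and 702 over all features. TD01 had 5 tiles above after scaling to equal median absolute deviations and 7 after quantile normalization. Requiring 0.2 units in each replicate left 17 above (PD 14), with 3024 over all features. Leaving out row G left 5 TD01 tiles below. The difference between PD and TB was -0.034 after scaling, -0.035 after quantile normalization and -0.028 with plates of at least 90 tiles. PD minus TA was -0.039 without the high TA runs. The causes were not tested. The trend or robust option taken singly, the 0.2 unit limit, the omitted rows and the omitted TA runs were chosen after seeing the data. With 1 replicate left there was no test of tiles. The PD tiles at least 0.5 units above then numbered 1 to 17 and those below 2 to 26. In TD01 these counts were 0 to 1 and 1 to 5. The higher counts were those of replicate 2 alone. Over all features the SD was 0.25 in replicate 1 and 0.39 in replicate 2. The share of all features past 0.5 units was not counted for a single replicate. With either replicate alone, PD minus TD01 ranged from -0.063 to -0.053 and PD minus TC00 to TC13 from -0.020 to 0.015. Each named tile kept its sign, but their choice largely fixed this. They were picked as the farthest from the median among called tiles with the same sign in both replicates. The 4 low named tiles did not pass with trend and robust variance (limma adjusted p from 0.077 to 0.091), and TD01G09 did not pass without centring (0.074). No paired analysis was possible because the study has a single group. With each replicate centred on its median and neither the trend nor the robust option, tiles closer than 0.26 units to the median could not be called.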
